A study of Mus musculus with 9 samples.

Results

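The genes of oxidative phosphorylation were followed in mouse liver, in both of the genomes that encode them. Members were the 13 protein-coding genes of the mitochondrial genome and the nuclear protein-coding genes whose symbols carry the stems of the respiratory chain and ATP synthase subunits (Nduf with a subunit letter and number, Sdha to Sdhd, Uqcr, Cox4 to Cox8, and Atp5). This gave 98 genes of the 17046 in the deposited tables, of which 85 are nuclear. By symbol, complex I has 41 nuclear and 7 mitochondrial members, complex II has 4 nuclear members, complex III has 8 and 1, complex IV has 15 and 3, and complex V has 17 and 2. The choice rests on names and not on measured values. Ndufa4 is counted with complex I by its symbol although its protein is now placed in complex IV.

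Complexes I and II pass electrons from NADH and succinate to ubiquinone, complex III hands them to cytochrome c, and complex IV gives them to oxygen. Complexes I, III and IV pump protons across the inner mitochondrial membrane, and complex V (ATP synthase) makes ATP as the protons return. All but complex II are built from subunits of both genomes, so their assembly needs transcripts made in the nucleus and in the mitochondrion. In liver the chain reoxidises the NADH that ethanol oxidation produces.

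Liver RNA was sequenced in 9 libraries, 3 in each of 3 groups of wild-type mice, to ask how Mettl3 overexpression affects gene expression under ethanol feeding. Every mouse had received an AAV8 virus with the hepatocyte promoter TBG by tail vein. The pair-fed group had the control virus, a control diet and a final maltose binge. The ethanol-fed group had the control virus, an ethanol diet and a final ethanol binge, and the Mettl3 group had the virus encoding FLAG-tagged Mettl3 with the same ethanol diet and binge. Diets began 3 weeks after injection and lasted 10 days. No pair-fed group with the Mettl3 virus is analysed here, so every Mettl3 value is from ethanol-fed mice. The labels number the replicates without naming animals, and p-values therefore measure only the spread between these samples.

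Levels are FPKM (fragments per kilobase of gene, scaled to the reads of the library), which are scaled to gene length and can be compared between genes. Differences are log2 fold changes of FPKM + 1. A gene was tested where at least 3 libraries of the fit reached 1 FPKM, and it is called higher or lower where limma's p, adjusted over all genes tested by the Benjamini-Hochberg method, was below 0.05. Of the 98 members, 94 passed this filter in each comparison. Values after ± are SDs over n = 3 libraries where they follow a level, sum or ratio, and standard errors of the limma fit where they follow a log2 fold change.

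Depth ran from 34656480 to 38159563 reads per library. Mettl3, encoding the catalytic subunit of the m6A RNA methyltransferase, was at 3.48 ± 0.447 FPKM in pair-fed, 4.69 ± 0.842 in ethanol-fed and 32.3 ± 6.81 in Mettl3 libraries, as labelled. Of 10 hepatocyte markers 9 are in the tables, and they summed to 48351 to 73646 FPKM per library. Of 8 skeletal and heart muscle markers, 7 were at 0 or not listed, and the remaining one was at most 0.825 FPKM throughout. In bulk liver RNA, fewer cells of a type and less RNA per cell cannot be told apart.

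The mitochondrial genome is transcribed as long strands that span many genes, and the RNA is then cut at the transfer RNAs between them. The measured levels of its 13 genes nevertheless covered a wide range. Averaged over the 9 libraries, COX1, the catalytic core of complex IV, was highest at 20311 FPKM. CYTB, the mitochondrial subunit of complex III, followed at 13803. Among the mitochondrial subunits of complex I, which form its proton-pumping arm, ND1 was at 10499, ND2 at 10195, ND5 at 5191 and ND4 at 4498. COX2, which takes electrons from cytochrome c, was at only 558, ATP6, in the proton channel of complex V, at 496, and COX3 at 312. ND4L was at 164, ATP8 at 128, ND3 at 118, and ND6, the one member read from the opposite strand, at 26.0.

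Of the 7 genes from COX2 downwards in that order, 5 had nearly exact copies in the nuclear genome. A stretch of mouse chromosome 1 (GRCm38 chr1:24611535-24616197, minus strand, 4663 bases) holds 7 annotated pseudogenes that match neighbouring mitochondrial genes. Gm28661 matched 99.6% of the length of COX2, Gm10925 99.6% of ATP6, Gm28437 99.9% of COX3 and Gm10222 98.99% of ND4L, each with 0 mismatches. Gm28438 matched 99.1% of ND3 with 1 mismatch, T3C, counted from the first base of the gene with the mitochondrial base first. The first 120 bases of COX3 and of its copy are shown because they are identical, so that a read from either fits both places.

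COX3 (chrM:8607-8726, plus strand): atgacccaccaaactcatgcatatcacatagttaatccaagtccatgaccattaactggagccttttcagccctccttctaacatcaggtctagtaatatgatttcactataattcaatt
Gm28437 (chr1:24613852-24613971, minus strand): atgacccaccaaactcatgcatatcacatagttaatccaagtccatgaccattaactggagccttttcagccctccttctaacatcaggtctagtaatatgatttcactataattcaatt

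The same window of ND3 and its copy is shown with the differing base in capitals, as it is the only mismatch over the 345 aligned bases.

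ND3 (chrM:9459-9578, plus strand): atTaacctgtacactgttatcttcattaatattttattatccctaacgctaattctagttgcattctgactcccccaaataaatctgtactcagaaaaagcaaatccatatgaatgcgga
Gm28438 (chr1:24613000-24613119, minus strand): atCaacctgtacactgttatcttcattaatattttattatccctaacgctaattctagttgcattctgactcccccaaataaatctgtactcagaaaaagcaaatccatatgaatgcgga

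The abundant genes had no such match over their whole length. COX1 matched Gm13340 on chromosome 2 over its full length with 37 mismatches (97.6% identity), and the chromosome 1 stretch holds only 31.3% of its length, in Gm29216, with 1 mismatch. CYTB matched Gm11410 on chromosome 4 with 81 mismatches (92.9% identity). The best annotated copy of ND1 was 76.6% identical over 53.2% of the gene, that of ND2 96.7% over 49.1%, and that of ND5 92.3% over 57.9%. ND4 was the intermediate case: Gm28439 matches bases 1 to 876, which is 63.6% of the gene, with 0 mismatches, and the rest has no such copy in that stretch. The opening of COX1 and of CYTB is shown beside their copies, with every differing base in capitals, to show how often a read over these genes would meet a difference.

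COX1 (chrM:5328-5447, plus strand): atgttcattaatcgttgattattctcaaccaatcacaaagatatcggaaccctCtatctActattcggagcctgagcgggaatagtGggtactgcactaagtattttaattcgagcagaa
Gm13340 (chr2:22589528-22589647, minus strand): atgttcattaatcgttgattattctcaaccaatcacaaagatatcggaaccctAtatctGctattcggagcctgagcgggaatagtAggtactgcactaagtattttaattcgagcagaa
CYTB (chrM:14146-14265, plus strand, from its second base): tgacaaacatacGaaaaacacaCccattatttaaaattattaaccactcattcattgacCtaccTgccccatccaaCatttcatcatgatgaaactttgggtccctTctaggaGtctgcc
Gm11410 (chr4:80003990-80004109, plus strand): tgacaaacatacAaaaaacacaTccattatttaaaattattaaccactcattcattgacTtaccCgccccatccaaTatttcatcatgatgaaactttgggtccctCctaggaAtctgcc

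Among these 120 bases COX1 and its copy differ at 3 positions (C54A, A60G and G87A, counted from the first base of COX1), and CYTB and its copy at 7. The 5 genes with a copy over nearly their whole length were between 61.6 and 855 FPKM in every library. COX1, CYTB, ND1, ND2, ND4 and ND5 were between 4077 and 22943 FPKM in every library, so the ranges of these named sets do not meet. ATP8, at 98.3 to 158 FPKM, and ND6, at 18.9 to 35.6, are in neither set. Both lack a nearly exact annotated copy of that length and were as low as the copied genes or lower. Within complex IV, COX1 stood 24.5 to 45.5 times above COX2 and 45.0 to 95.8 times above COX3, the extremes over the 9 libraries. ND4 stood 20.6 to 45.0 times above ND4L, with which it shares 7 bases.

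ATP8 and ND6 were low as well, without an annotated copy of that kind. The annotated match of ATP8 with the best alignment score was 81.4% identical over 81.9% of the gene. Between the copies of ATP6 and COX2, however, chromosome 1 holds 233 unannotated bases. In the mitochondrial genome 233 bases lie between the matching parts of ATP6 and COX2. They include all of ATP8 before the stretch it shares with ATP6. The sequence of those chromosome 1 bases was not analysed here. ATP8 also shares its last 43 bases with the start of ATP6, where Gm10925 matches with 0 mismatches. These 43 bases are shown here because a read inside them belongs to both genes.

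ATP8 and ATP6 overlap (chrM:7927-7969, plus strand): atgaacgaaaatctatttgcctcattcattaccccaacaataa

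ND6 matched Gm11408 at 93.6% over its full length and overlaps ND5 by 14 bases on the other strand. How reads with more than 1 place in the genome, and reads on either strand, were counted is not given in the sources used here. The pseudogenes have no row in the tables. Whether the copies set the low values of COX2, COX3, ATP6, ND3 and ND4L was not tested.

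**Figure D1:**
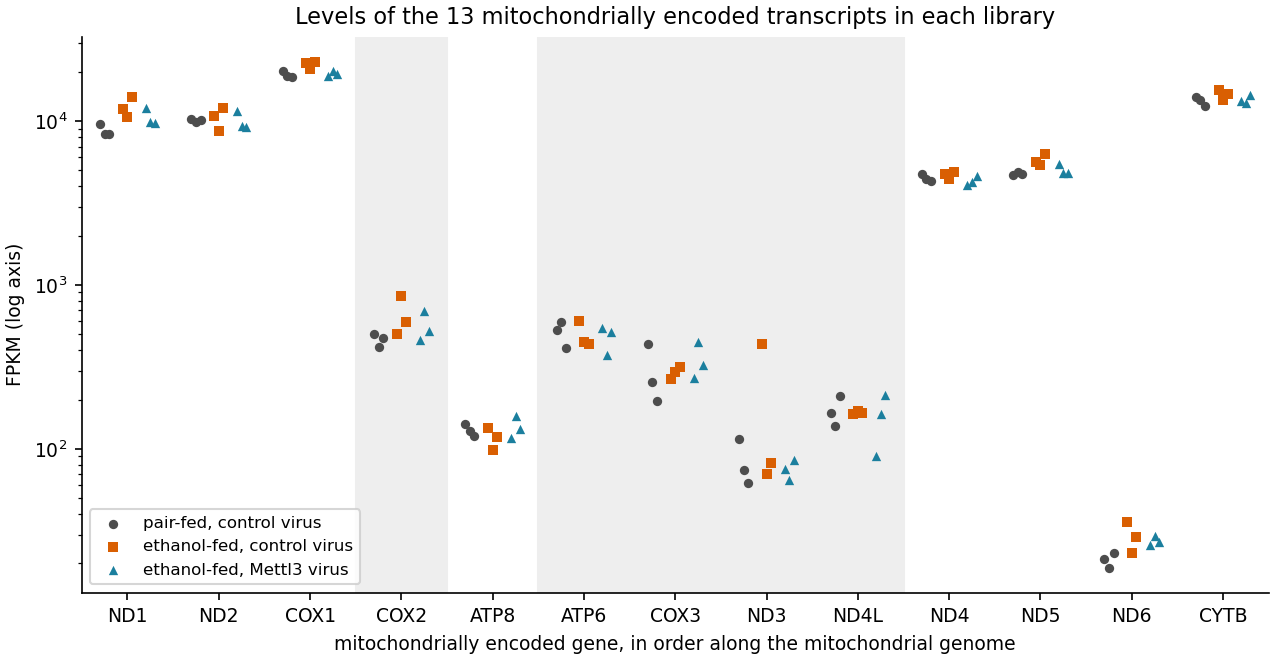
FPKM (log axis) of each of the 13 mitochondrially encoded genes in the 9 libraries, with genes in their order along the mitochondrial genome, circles for pair-fed, squares for ethanol-fed and triangles for Mettl3 libraries. Grey bands mark the 5 genes with a chromosome 1 copy over nearly their whole length, which lie between 61.6 and 855 FPKM, and 1 square of ND3 (437 FPKM) stands apart from the other 8 values of that gene.

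Ethanol feeding was compared with pair feeding in the 6 libraries with the control virus. Of all 10064 genes tested, 10.0% were called higher and 26.0% lower, with a median log2 fold change of -0.14. Among the 13 mitochondrial members, 1 was called higher and 0 lower. Their median was 0.13, with 10 positive and 3 negative signs, beside 3551 positive and 6513 negative over all genes. Dividing FPKM by median-ratio size factors, which centre the libraries on the typical gene, moved the median of all genes to 0.01. On that scale 3 mitochondrial members were higher (ND1, ND5 and ND6), 0 were lower, their median was 0.31 and all 13 signs were positive. Over all 10032 genes tested on that scale, 1796 were called higher and 1663 lower, with 5182 positive and 4850 negative signs. The 13 genes are read from shared long transcripts, so their signs are not separate observations.

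ND1, the subunit at the junction of the membrane arm with the matrix arm of complex I, was the called member. Its level was 9549, 8362 and 8294 FPKM in the pair-fed libraries and 11909, 10536 and 14130 in the ethanol-fed libraries. The groups did not overlap, and the log2 fold change was 0.47 ± 0.14 (SE; limma adjusted p = 0.0356). The call was lost without ethanol-fed library 3 (0.36, limma adjusted p = 0.0942) and without pair-fed library 1, 2 or 3 (0.54, 0.44 and 0.44, limma adjusted p of 0.0675, 0.129 and 0.121).

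ND2, the neighbour of ND1 on the same strand, was not called. Its level was 10260, 9893 and 10149 FPKM in pair-fed libraries and 10749, 8696 and 11961 in ethanol-fed libraries, with a log2 fold change of 0.04 (limma adjusted p = 0.84). The ratio of ND1 to ND2, singled out after its values were seen and independent of library scaling, was 0.931, 0.845 and 0.817 in pair-fed, 1.11, 1.21 and 1.18 in ethanol-fed, and 1.04, 1.06 and 1.07 in Mettl3 libraries. The 3 groups do not overlap in this ratio.

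ND5, a pump-like subunit at the far end of the membrane arm, was at 4720 to 4872 FPKM in pair-fed and 5376 to 6276 in ethanol-fed libraries (log2 fold change 0.27, limma adjusted p = 0.081). COX1 was at 18673 to 20243 and 20920 to 22943 FPKM (0.21, limma adjusted p = 0.17). In both genes the groups did not overlap although the test was not passed. The share of all genes without overlap was not counted, so its absence in ND1, ND5 and COX1 adds no support for a change. ND6, which lies in the same arm, was at 18.9 to 23.2 and 23.2 to 35.6 FPKM, where the groups touch (0.44, limma adjusted p = 0.0707). CYTB was at 12398 to 14035 and 13416 to 15484 FPKM, with overlapping groups (0.13, limma adjusted p = 0.405), and ND4 at 4307 to 4740 and 4427 to 4890 (0.06, limma adjusted p = 0.658).

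Of the genes with chromosome 1 copies, ND3 was at 437 FPKM in ethanol-fed library 1, from 5272 reads, and at 61.6 to 115 FPKM in the other 8 libraries. Its log2 fold change was 0.75 (limma adjusted p = 0.396) with that library and -0.09 (limma adjusted p = 0.792) without it. COX2 was at 503, 416 and 476 FPKM in pair-fed and 501, 855 and 591 in ethanol-fed libraries (0.45, limma adjusted p = 0.113), and without ethanol-fed library 1 it passed the test (0.61, limma adjusted p = 0.0231). COX3 was at 439, 255 and 195 against 266, 294 and 315 FPKM (0.06, limma adjusted p = 0.877). ATP6, ATP8 and ND4L had log2 fold changes of -0.04, -0.16 and -0.02, none called.

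In the authors' deposited table, made with their own scaling, 6 mitochondrial members had q below 0.05 for ethanol-fed against pair-fed livers, all higher. These were ND1 (log2 fold change 0.68, q = 0.00113), ND6 (0.65), ND5 (0.47), COX2 (0.68), COX1 (0.40) and CYTB (0.32, q = 0.0466). The median over the 13 was 0.32 in the authors' deposited table. The share of all its genes with q below 0.05 was not counted here, so the 6 have no background beside them.

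Summed over genes, the 2 genomes moved apart under ethanol. The ratio below was not formed with other nuclear genes, so whether the gap is particular to these members was not tested. The 13 mitochondrial members summed to 62316 ± 2814 FPKM in pair-fed and 71806 ± 5824 in ethanol-fed libraries. The 85 nuclear members summed to 9964 ± 514 and 8827 ± 586 FPKM. Because a scaling factor cancels within a library, the ratio of the sums does not depend on normalization. This ratio was 6.71, 6.41 and 5.69 in pair-fed libraries and 7.84, 7.96 and 8.595 in ethanol-fed libraries, with no overlap. In Mettl3 libraries it was 8.39, 7.60 and 6.74, above all pair-fed values and partly below the ethanol-fed ones. Of all FPKM, mitochondrial members held 13.4 ± 0.486% in pair-fed, 15.2 ± 1.04% in ethanol-fed and 13.6 ± 0.374% in Mettl3 libraries. Pair-fed library 1 (13.94%) and ethanol-fed library 2 (13.97%) nearly met, and Mettl3 libraries lay within the pair-fed range. Nuclear members held 2.14 ± 0.122, 1.86 ± 0.126 and 1.80 ± 0.193%. Their median log2 fold change under ethanol was -0.17, beside -0.14 over all genes.

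The ratio differed in complexes I, III and IV. In complex I it was 8.49 to 9.84 in pair-fed and 12.0 to 14.1 in ethanol-fed libraries, in complex III 9.29 to 11.5 and 12.96 to 13.1, and in complex IV 8.05 to 9.44 and 10.8 to 11.6. None of these 3 pairs of ranges overlap. In complex V, whose mitochondrial members ATP6 and ATP8 are both low, the ratio was 0.177 to 0.257 and 0.212 to 0.274, with overlap. Most of the mitochondrial sum comes from COX1, CYTB, ND1 and ND2, and without COX1 it was 43065 ± 1966 FPKM in pair-fed and 49593 ± 4729 in ethanol-fed libraries. On the median-ratio scale the mitochondrial sum was 55727 ± 1739 and 73356 ± 10007, while the nuclear sum was 8918 ± 578 and 8994 ± 787, so the side on which the gap opened depends on the scaling.

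**Figure D2:**
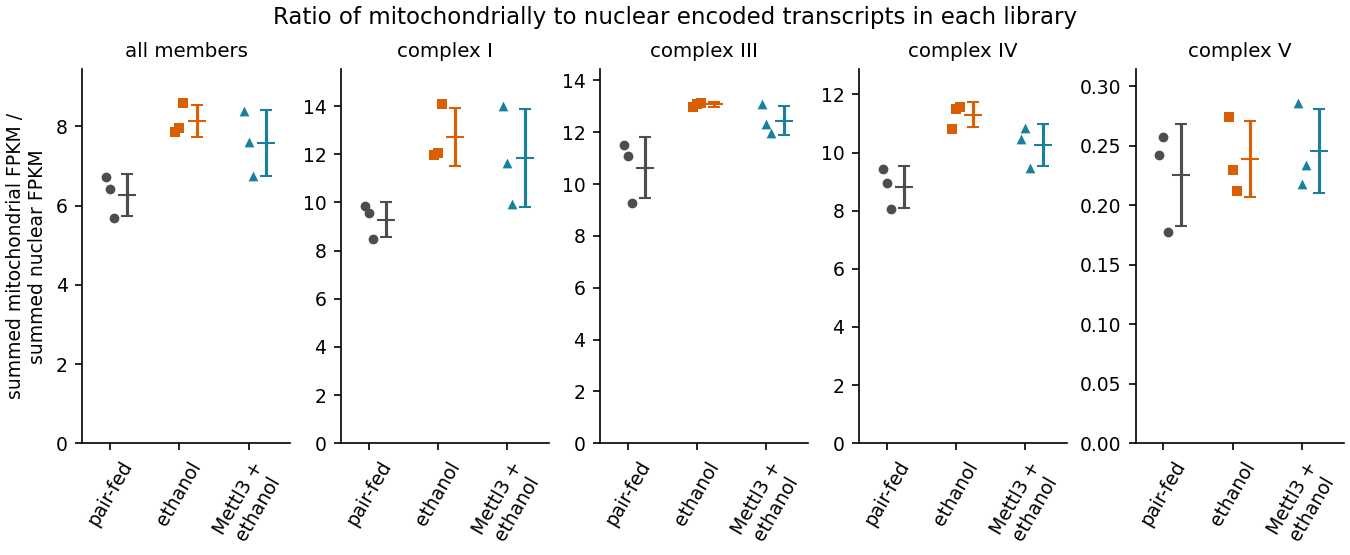
Summed FPKM of mitochondrially encoded members divided by that of nuclear members, per library (points) with mean and SD beside them, for all members and for each complex with subunits from both genomes (linear axes from 0, a scale for each panel). Ethanol-fed libraries lie above all pair-fed libraries in every panel but complex V, and the Mettl3 libraries spread from 6.74 to 8.39 over all members.

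Nuclear members were far less abundant than the 6 abundant mitochondrial ones. Of the 85, 81 had a mean of at least 1 FPKM over the 9 libraries, and their median was 87.7. Atp5b, the catalytic beta subunit of ATP synthase, was highest at 439 FPKM. Ndufa4 led complex I by symbol (337), Sdha, the flavoprotein of succinate dehydrogenase, complex II (147), Uqcrb, a small subunit that binds ubiquinone, complex III (233), and Cox7c, a small membrane subunit, complex IV (334). Median levels were 58.8 FPKM in complex I, 116 in complex II, 131 in complex III, 183 in complex IV and 130 in complex V. Subunits present in equal number in a complex thus had transcripts at unequal levels, such as the core redox subunits of complex I, Ndufs1 at 30.1 ± 1.44 and Ndufv1 at 59.1 ± 2.03 FPKM in pair-fed libraries.

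Among subunits with tissue-specific versions, the ubiquitous or liver version carried nearly all of the signal. Cox4i1 was at 286 to 385 FPKM in the pair-fed and ethanol-fed libraries, and its lung-enriched version Cox4i2 at 0 to 0.259. Cox6a1 was at 196 to 248 FPKM in those libraries and its heart and muscle version Cox6a2 at 0 to 0.263. Cox6b1 was at 286 to 346 FPKM over all 9 libraries and the testis version Cox6b2 at 0 to 0.223. Ndufa4l2, a hypoxia-induced relative of Ndufa4, was at 0.162 to 1.06 FPKM. These 4 low versions (Cox4i2, Cox6a2, Cox6b2 and Ndufa4l2) are the members that did not pass the filter. Cox7a1, the muscle version of Cox7a2, was at 0.690 to 1.75 FPKM against 75.6 to 98.5 for Cox7a2.

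Under ethanol, nuclear members shifted slightly down with the rest of the transcriptome. Of 81 tested, 1 was called higher and 11 lower, against 10.0% and 26.0% of all genes. Signs were negative in 71 and positive in 10, beside 6513 and 3551 over all genes. The median log2 fold change of these members was -0.17, beside -0.14 over all genes. The direction of this median depends on scaling: with median-ratio size factors it was 0.02, with 46 positive and 35 negative signs. Over all genes on that scale 5182 signs were positive and 4850 negative. On that scale 2 members were called higher (Ndufa8 and Atp5g1) and 2 lower (Ndufa6 and Atp5g2), beside 1796 and 1663 of all 10032 genes tested. Medians were alike in the 5 complexes, at -0.15 in I, -0.18 in II, -0.17 in III, -0.17 in IV and -0.17 in V. Ethanol-fed library 1 lay closest to the pair-fed group, with nuclear members at a median of -0.06 from the pair-fed mean on the log2 scale. Ethanol-fed libraries 2 and 3 were at -0.26 and -0.16. Over the 10229 genes tested in Mettl3 against pair-fed libraries, the medians of ethanol-fed libraries 1, 2 and 3 were -0.04, -0.14 and -0.22. All calls below are on the FPKM scale unless stated. The groups did not overlap in any of the 12 nuclear members called. A call on so few libraries favours such groups, so this adds no support to the calls.

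Complex I held 1 higher and 5 lower members of 40 tested. Ndufa6, an accessory subunit of the matrix arm, fell most. It was at 245, 239 and 285 FPKM in pair-fed and 183, 141 and 157 in ethanol-fed libraries, a log2 fold change of -0.67 ± 0.13 (SE; limma adjusted p = 0.00783). This call held without any single library and on the median-ratio scale (-0.49, limma adjusted p = 0.0231). Ndufv3, a small subunit of the NADH-oxidising module, was at 37.6, 36.6 and 44.2 against 29.2, 25.7 and 28.6 FPKM (-0.49 ± 0.11, limma adjusted p = 0.0138). Ndufb10, on the intermembrane side of the membrane arm, was at 144, 140 and 155 against 111, 109 and 112 FPKM (-0.40 ± 0.09, limma adjusted p = 0.012). Both of these lost the call only without pair-fed library 3 among the libraries left out (limma adjusted p of 0.0595 and 0.0575).

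Ndufa7, another accessory subunit of the matrix arm, was at 116 to 131 against 98.2 to 104 FPKM (-0.28 ± 0.09, limma adjusted p = 0.0442). Ndufs6b, a sequence relative of Ndufs6, was low, at 4.16 to 4.48 against 2.37 to 3.57 FPKM (-0.52 ± 0.14, limma adjusted p = 0.0252). GENCODE annotates Ndufs6b as a processed pseudogene, 90.3% identical to the coding sequence of Ndufs6, while the deposited tables list it as protein-coding. Against this direction, Ndufa8, an accessory subunit held by disulfides on the intermembrane side, was higher. It was at 82.4, 72.2 and 76.2 FPKM in pair-fed and 101, 110 and 90.8 in ethanol-fed libraries (0.38 ± 0.11, limma adjusted p = 0.0285). The call for Ndufa8 was lost without ethanol-fed library 2 (limma adjusted p = 0.0768) and without any of pair-fed libraries 1, 2 and 3 (0.0555, 0.119 and 0.094), and it held on the median-ratio scale (0.57, limma adjusted p = 0.00699).

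The subunits of complex I that carry its flavin and iron-sulfur clusters did not pass the test. Ndufv1 was at 57.5 to 61.4 FPKM in pair-fed and 52.9 to 60.7 in ethanol-fed libraries (-0.05, 95% interval -0.27 to 0.16), and Ndufs1 at 29.0 to 31.7 and 29.3 to 32.8 (0.03, -0.19 to 0.24). Ndufs7 had a log2 fold change of -0.28 (limma adjusted p = 0.0683) and Ndufs8 of -0.21 (limma adjusted p = 0.173). In complex II none of the 4 members was called. Sdha was at 161 to 167 against 136 to 153 FPKM (-0.17, limma adjusted p = 0.166) and Sdhb, its iron-sulfur partner, at 90.1 to 106 against 89.4 to 104 (-0.01, limma adjusted p = 0.948).

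Complex III held 2 lower members of 8. Uqcrq, a small subunit near the ubiquinone site, was at 129, 123 and 133 FPKM in pair-fed and 104, 99.4 and 104 in ethanol-fed libraries (-0.32 ± 0.08, limma adjusted p = 0.0249). Uqcrfs1, the Rieske iron-sulfur protein that moves electrons to cytochrome c1, was at 92.2, 94.8 and 102 against 81.1, 79.3 and 79.5 FPKM (-0.27 ± 0.09, limma adjusted p = 0.0459). Uqcrb was at 244 to 270 against 208 to 225 FPKM (-0.21, limma adjusted p = 0.108).

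Complex IV held 2 lower members of 12. Cox7a2l, which joins complexes III and IV into supercomplexes, was at 71.3, 69.8 and 71.4 FPKM in pair-fed and 53.3, 50.9 and 50.8 in ethanol-fed libraries. Replicates of Cox7a2l lay close together in both groups, and the fold change was -0.45 ± 0.08 (limma adjusted p = 0.00674). It held without any single library and stood at the threshold on the median-ratio scale (-0.26, limma adjusted p = 0.0501). Cox4i1, the largest nuclear subunit of the complex, was at 358, 352 and 385 against 301, 286 and 288 FPKM (-0.32 ± 0.09, limma adjusted p = 0.0294). Cox7a1 had a log2 fold change of -0.36 at its low level (limma adjusted p = 0.0661).

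Complex V held 2 lower members of 17. Atp5e, the epsilon subunit of the rotating stalk, was at 153, 155 and 176 against 131, 122 and 131 FPKM (-0.33 ± 0.10, limma adjusted p = 0.0336). The catalytic subunits were not called: Atp5b was at 452 to 502 against 417 to 446 FPKM (-0.16, limma adjusted p = 0.211), and Atp5a1, encoding the alpha subunit, at 305 to 320 against 289 to 309 (-0.08, limma adjusted p = 0.49).

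Calls for Atp5e, Cox4i1, Ndufa7 and Uqcrfs1 were lost without any one of the 6 libraries other than ethanol-fed library 1, with limma adjusted p up to 0.161. Those for Ndufs6b and Uqcrq were lost without ethanol-fed library 2 or any 1 of the pair-fed libraries, with limma adjusted p up to 0.0966. On the median-ratio scale all nuclear calls but Ndufa6, Ndufa8 and Atp5g2 were lost. Of the other settings listed under processing, Ndufa7 and Uqcrfs1 held only with a pseudocount of 0.1. A replicate block also lost Atp5e, Cox4i1, Uqcrq, ND1 and Ndufa8. Limma-voom also lost Ndufs6b, and the fit of all 9 libraries also lost Ndufa8. In the authors' deposited table the nuclear members with q below 0.05 were 3: Ndufa6 (log2 fold change -0.49, q = 0.00666), Ndufa8 (0.57, q = 0.00016) and Atp5g1 (0.48, q = 0.0154). The share of all genes at that q was not counted here.

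**Figure D3:**
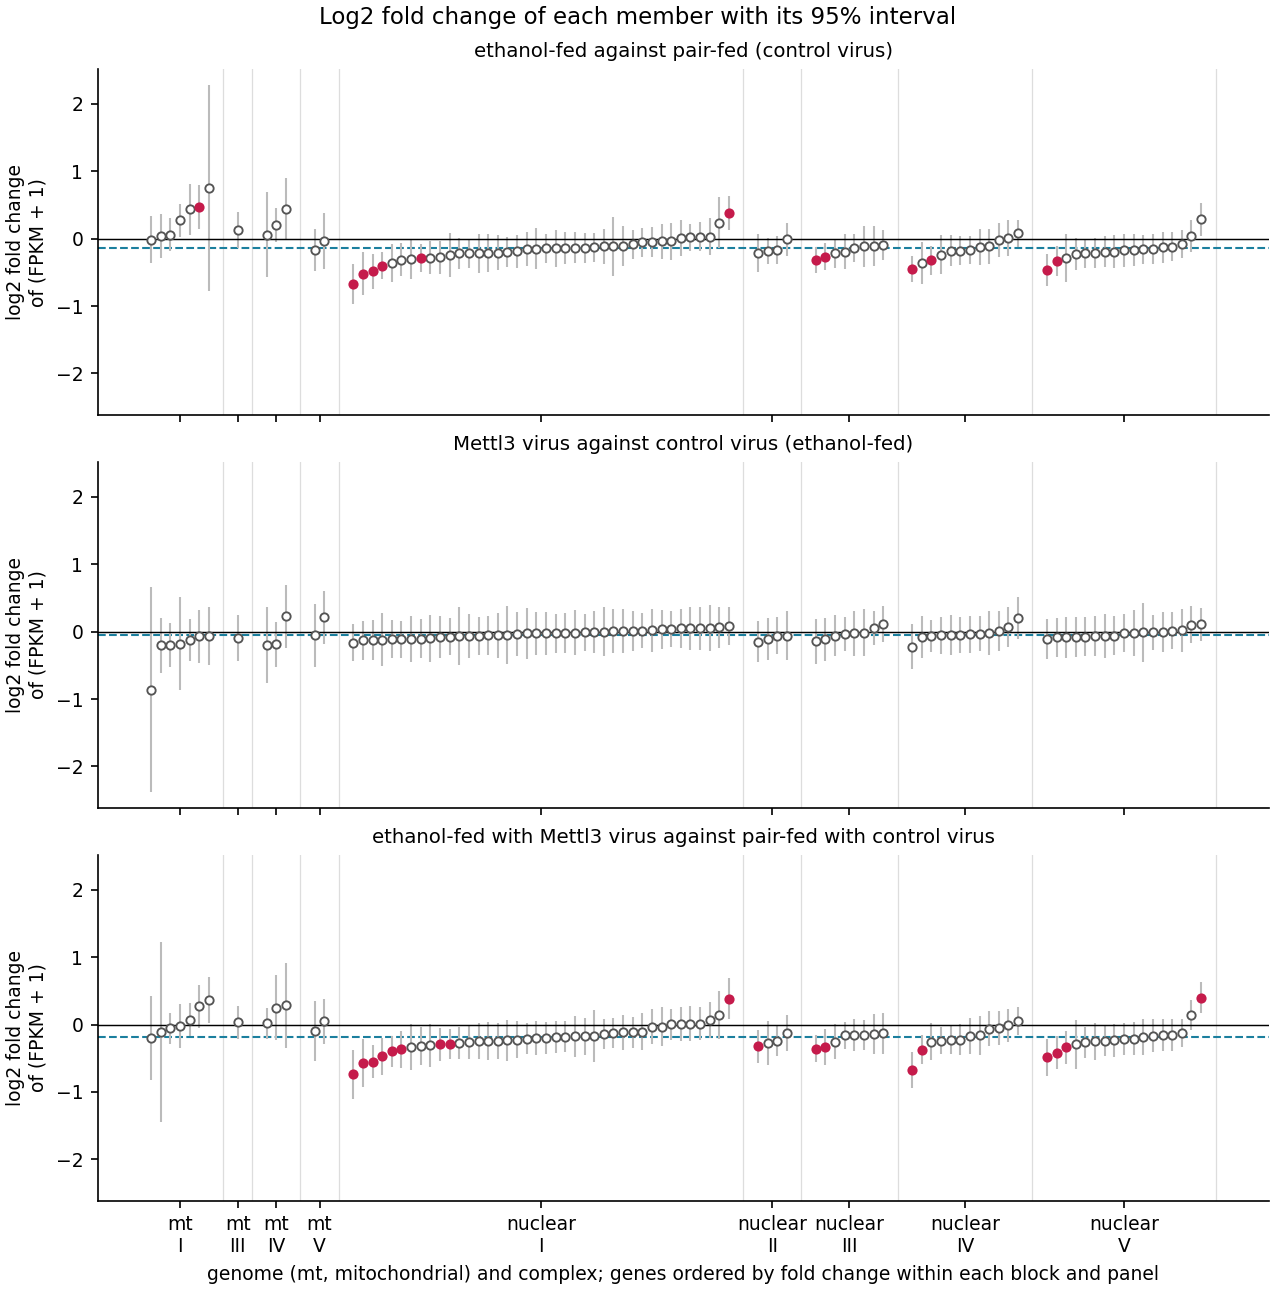
Log2 fold change of FPKM + 1 for each of the 94 members tested in the 3 comparisons (panels), in blocks by genome and complex, with bars for 95% intervals; filled points are called at an adjusted p below 0.05 and the dashed line is the median of all genes tested. Nuclear members lie around the dashed line in each panel, and the middle panel has no filled point.

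The 3 genes for subunit c of ATP synthase differed in direction. Atp5g1, Atp5g2 and Atp5g3 encode precursors with different targeting sequences and the same mature protein, which forms the rotor ring in the membrane. Atp5g2 was at 96.9, 99.7 and 104 FPKM in pair-fed and 81.7, 67.3 and 68.8 in ethanol-fed libraries (-0.47 ± 0.10, limma adjusted p = 0.0138), a call lost without pair-fed library 2 or 3 (limma adjusted p of 0.0592 and 0.0626). Atp5g1 was at 73.6, 73.3 and 87.7 against 91.3, 94.0 and 101 FPKM, higher in 3 of 3 libraries but short of the threshold (0.29 ± 0.10, limma adjusted p = 0.0665), and it passed on the median-ratio scale (0.47, limma adjusted p = 0.0327). Atp5g3, the most abundant, was at 158, 174 and 184 against 143, 149 and 155 FPKM (-0.21, limma adjusted p = 0.128).

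As shares of their sum, which no scaling changes, Atp5g1 made up 22.4, 21.1 and 23.3% in pair-fed libraries, 28.9, 30.4 and 31.1% in ethanol-fed libraries and 32.7, 34.4 and 28.3% in Mettl3 libraries. Atp5g2 went from 27.8 to 29.5% in pair-fed to 21.2 to 25.9% in ethanol-fed libraries, and Atp5g3 from 48.1 to 50.1% to 45.2 to 47.9%. The sum of the 3 was 350 ± 23.8, 317 ± 7.57 and 326 ± 31.7 FPKM in the 3 groups. Atp5g1 and Atp5g2 have processed pseudogenes that match their whole coding sequence, at 99.8% (Gm10039) and 100% (Gm10175), so their levels share the limit on reads with more than 1 place. The shares were singled out after values were seen and were given no test.

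**Figure D4:**
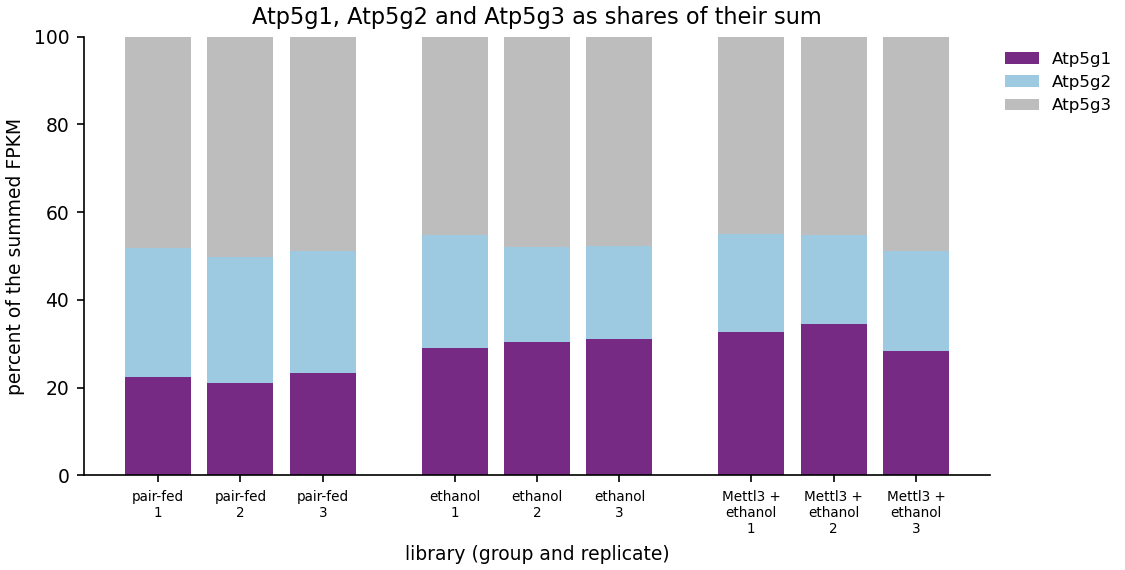
Stacked shares (percent of their summed FPKM) of Atp5g1, Atp5g2 and Atp5g3 in each of the 9 libraries, in 3 groups of 3. The Atp5g1 segment reaches 21.1 to 23.3% in pair-fed libraries and 28.3 to 34.4% in the 6 ethanol-fed libraries of both viruses.

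Near-identical copies were common among the nuclear members as well. Of 81 with a coding transcript in the annotation, 40 had another annotated gene matching at least 90% of the coding sequence, 13 of these at 98% identity or more and 5 at 100% (Atp5g2, Atp5l, Atp5md, Cox7c and Ndufb4). In the ethanol comparison the 13 had 0 higher and 1 lower call with a median of -0.15, and the other 68 tested nuclear members had 1 and 10 with a median of -0.18. The members tested are not the same as those searched. Ndufb4c and Ndufs6b, processed pseudogenes in GENCODE, were not searched and fall among the 68, although Ndufb4c is itself the 100% match of Ndufb4.

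The Mettl3 virus was compared with the control virus among ethanol-fed mice. Of 9706 genes tested, 0.0103% were called higher, which is Mettl3 itself, and 0% lower. Of the 94 members tested, 0 were called by limma, with a smallest adjusted p of 0.674 and 0 members with an unadjusted p below 0.05. Of all 9706 genes, 723 had an unadjusted limma p below 0.05. Limma-voom on recovered reads called 0 as well, and the authors' deposited table has 0 members with q below 0.05, its smallest q being 0.696. The median log2 fold change was -0.03 over nuclear and -0.12 over mitochondrial members, beside -0.04 over all genes, and 0.05 and -0.03 on the median-ratio scale, so the sign over nuclear members depends on scaling.

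The intervals show what size of change these libraries could leave unseen. For 78 of 81 nuclear members the 95% interval of the log2 fold change lay between -0.5 and 0.5. The lowest bound among them was -0.56, for Cox7a2l, and the highest was 0.51, for Cox7a1. Cox7a2l was at 53.3, 50.9 and 50.8 FPKM with the control virus and 38.5, 41.6 and 53.4 with the Mettl3 virus (-0.22, limma adjusted p = 0.674). Of the 3 Mettl3 libraries, 2 thus lay below the ethanol-fed range and 1 just above it. Other members with the largest changes of their complex were Ndufb8, a subunit of the membrane arm (-0.16), Sdha (-0.15), Uqcr11, a small subunit of complex III (-0.14), and Atp5g1 (0.11), none of them called.

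Mitochondrial members were measured less tightly in this comparison. The intervals of 4 of the 13 lay between -0.5 and 0.5. ND1 was at 11962, 9938 and 9806 FPKM with the Mettl3 virus, with a log2 fold change of -0.20 (95% interval -0.61 to 0.21), COX1 at 18879 to 20165 FPKM (-0.19, -0.52 to 0.14) and ND5 at 4797 to 5488 FPKM (-0.20, -0.53 to 0.13). COX1 did not overlap with the ethanol-fed libraries (20920 to 22943 FPKM), although the test was not passed (limma adjusted p = 0.693). The share of all genes without overlap was not counted here either, so this adds no support for a change. ND3 had the largest difference, -0.86, which became -0.02 without ethanol-fed library 1.

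Mettl3 libraries were also set against the pair-fed libraries, a comparison that changes virus and diet together and shares its controls with the ethanol comparison. Of 10229 genes tested, 13.9% were called higher and 34.9% lower, with a median of -0.18. Among the members, 2 of 94 were higher and 16 lower. All 18 were nuclear. The groups did not overlap in any of them, which selection by the test favours and which adds no support to the calls. The nuclear median was -0.21, with 71 negative and 10 positive signs, and the mitochondrial median was 0.03 with 0 calls. Over all genes 6741 signs were negative and 3488 positive. On the median-ratio scale the median over all genes was 0.04, the nuclear median 0.05 and the mitochondrial one 0.30. On that scale 8 members were higher and 2 lower, beside 2597 and 2168 of all 10180 genes tested.

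The lower members spread over every complex. In complex I, Ndufa6 was at 137, 133 and 194 FPKM in Mettl3 libraries against 239 to 285 in pair-fed ones (-0.74 ± 0.16, limma adjusted p = 0.00633). Ndufv3, at 25.2, 25.3 and 29.3 FPKM, had -0.55 (limma adjusted p = 0.00413), Ndufs6b -0.56, Ndufb10 -0.47, Ndufa7 -0.40 and Ndufb11, on the membrane arm, -0.37. Ndufa4 and Ndufa9, a subunit beside the ubiquinone channel, both had -0.29. In complex II, Sdha, at 117, 128 and 149 FPKM, was called lower (-0.32, limma adjusted p = 0.0334).

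In complex III, Uqcrq had -0.36 and Uqcr11 -0.33. Cox7a2l had the second-largest fall of all members (-0.67 ± 0.12, limma adjusted p = 0.00272), and Cox4i1, at 261, 283 and 304 FPKM, had -0.37. In complex V, Atp5g2 had -0.49, Atp5e -0.42 and Atp5c1, the gamma subunit of the stalk, -0.33. The higher members were Atp5g1, at 99.7, 107 and 103 FPKM against 73.3 to 87.7 (0.40 ± 0.10, limma adjusted p = 0.0106), and Ndufa8, at 88.9, 93.7 and 122 FPKM against 72.2 to 82.4 (0.38 ± 0.13, limma adjusted p = 0.0408).

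Calls for Ndufa6, Cox7a2l, Atp5g1, Atp5g2, Ndufv3, Ndufa7 and Uqcrq held without any single library of the 2 groups. Of these, Ndufa6, Cox7a2l and Atp5g1 also held on the median-ratio scale. Atp5c1, Ndufa4, Ndufa8, Ndufa9, Ndufb11, Sdha and Uqcr11 each lost the call in 5 of the 6 fits without 1 library, with limma adjusted p up to 0.15; the call held only without Mettl3 library 1 for Ndufa8 and only without Mettl3 library 3 for the others. Cox4i1 lost it without pair-fed library 3, Ndufb10 without Mettl3 library 2, Atp5e without pair-fed library 3 or Mettl3 library 1, and Ndufs6b without pair-fed library 2 or 3 or Mettl3 library 2 (limma adjusted p up to 0.0612). With a replicate block Ndufa4, Ndufa8, Ndufa9, Sdha and Uqcr11 lost the call as well. Mettl3 library 3 lay closest to the pair-fed group. Its nuclear members were at a median of -0.05 from the pair-fed mean on the log2 scale, beside -0.30 and -0.25 in Mettl3 libraries 1 and 2. This was not particular to the members: over all 10229 genes the medians were -0.11 in Mettl3 library 3 and -0.21 and -0.24 in Mettl3 libraries 1 and 2. Without Mettl3 library 3, 42 members were lower, and the share of all genes called in that fit was not counted.

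**Figure D5:**
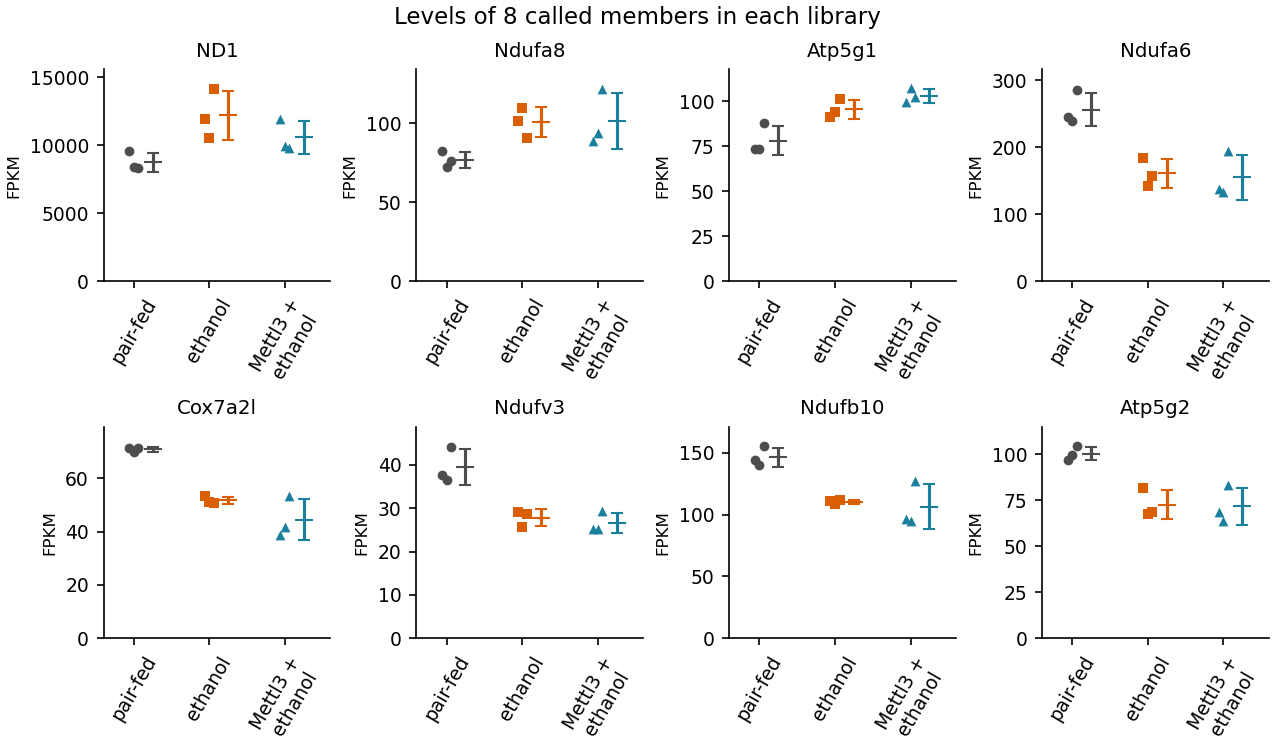
FPKM of 8 called members in each library (points) with mean and SD beside them, in the 3 groups, on linear axes from 0; the 8 were picked from the calls of the 2 comparisons with pair-fed libraries. Ndufa6, Cox7a2l, Ndufv3, Ndufb10 and Atp5g2 lie lower in all 6 ethanol-fed libraries than in the pair-fed ones, and ND1, Ndufa8 and Atp5g1 lie higher.

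Other genes of the pathway were read from lists chosen with earlier results known. Among 11 carriers and subunits outside the naming rule, 1 was called higher and 5 lower under ethanol, with a median of -0.16, beside 10.0% and 26.0% of all genes with a median of -0.14. Etfa and Etfb, whose proteins form the flavoprotein that collects electrons from fatty acid oxidation, had -0.53 and -0.36, and Etfdh, which passes them to ubiquinone, -0.51 (limma adjusted p of 0.0043, 0.0258 and 0.00567). Slc25a4, an ADP/ATP carrier, had -0.38 and Dmac2l, a factor linked to ATP synthase, -0.39. Cycs, encoding cytochrome c, was at 23.5, 23.3 and 22.1 FPKM in pair-fed, 31.4, 26.9 and 30.8 in ethanol-fed and 36.2, 34.3 and 33.5 in Mettl3 libraries. It was higher in both groups than in pair-fed libraries (0.35, limma adjusted p = 0.0277, and 0.57, limma adjusted p = 0.00183). Mettl3 against pair-fed libraries gave 1 higher and 5 lower in this list, beside 13.9% and 34.9% of all genes. Mettl3 against control virus gave 0 calls by limma in it and in each of the next 3 lists. In these lists, in order, 0, 0, 2 and 1 genes had an unadjusted limma p below 0.05, beside 723 of all 9706 genes tested.

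Of 44 assembly factors tested, 1 was higher and 4 lower under ethanol, with a median of -0.07, and 3 and 6 in Mettl3 against pair-fed libraries. The shares over all genes were 10.0% and 26.0% in the first comparison and 13.9% and 34.9% in the second. Foxred1, needed to assemble complex I, was higher (8.28, 7.26 and 7.35 against 9.65, 12.2 and 13.4 FPKM; 0.56, limma adjusted p = 0.0176). Uqcc3, which assists complex III, had -0.55, Tmem126b and Ecsit, both of complex I assembly, -0.43 and -0.28, and Coa5, of complex IV assembly, -0.41.

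Of 27 tested genes that copy, transcribe or process mitochondrial DNA and its RNA, 4 were higher and 3 lower under ethanol, with a median of 0.04, and 8 and 5 in Mettl3 against pair-fed libraries. Over all genes 10.0% were higher and 26.0% lower under ethanol, and 13.9% and 34.9% in Mettl3 against pair-fed libraries. The higher genes were Trmt10c, a subunit of the enzyme that cuts transfer RNAs out of mitochondrial transcripts (0.56, limma adjusted p = 0.00482), Tbrg4 and Fastk, which act on mitochondrial RNA stability (0.42 and 0.41), and Rexo2, which degrades short RNA (0.42). The lower ones were Tfam, which packages mitochondrial DNA and starts its transcription (12.2, 12.8 and 12.6 against 10.6, 7.68 and 8.14 FPKM; -0.48, limma adjusted p = 0.0252), Polg2, the accessory subunit of the mitochondrial DNA polymerase (-0.68), and Mterf4, which acts in mitochondrial ribosome assembly (-0.59).

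Of 8 regulators of mitochondrial biogenesis tested, 1 was higher and 3 lower under ethanol, with a median of -0.34, and 1 and 4 in Mettl3 against pair-fed libraries, beside the same 10.0% and 26.0%, and 13.9% and 34.9%, of all genes. Ppara, the nuclear receptor for fatty acids, was at 41.0, 50.4 and 46.4 against 18.0, 10.8 and 10.2 FPKM (-1.78, limma adjusted p = 0.00177). Ppargc1a, the coactivator PGC-1 alpha, was near the filter at 1.076, 1.45 and 1.54 against 0.874, 0.328 and 0.859 FPKM (-0.49, limma adjusted p = 0.0445). Yy1, a transcription factor, had -0.65, and Pprc1, a relative of PGC-1 alpha, was higher at 2.10, 2.25 and 2.14 against 4.66, 5.83 and 4.29 FPKM (0.90, limma adjusted p = 0.00247).

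Promoters of nuclear members were searched for 3 motifs in the RefSeq window from 250 bases before to 50 after the start (GRCm38), on both strands, in 68 members with an entry. NRF1 letters GCGCATGCG were in 11.8% of these members and in 1.95% of the 27025 genes with such a window. YY1 letters AAGATGGCG were in 10.3% and 1.64%, and ETS letters CCGGAAGT in 7.35% and 4.31%. Ndufa8 and Atp5g2, called in opposite directions under ethanol, both hold the NRF1 letters. A match describes letters and is not shown to be a bound site.

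Markers of other liver cells moved between the groups and are given for comparison. The 9 Kupffer cell and macrophage markers summed to 266 to 299.6 FPKM in pair-fed, 142 to 213 in ethanol-fed and 125 to 225 in Mettl3 libraries, and 7 of 9 were called lower under ethanol. The 6 sinusoidal endothelial markers summed to 100.1 to 112, 83.3 to 83.7 and 83.6 to 94.3 FPKM, with 1 higher and 4 lower under ethanol. The 6 neutrophil markers in the tables summed to 7.46 to 11.6, 9.32 to 74.0 and 49.0 to 105 FPKM, with 1 of 4 tested called higher under ethanol and 4 of 5 in Mettl3 against pair-fed libraries. Ethanol-fed library 1 was at 9.32, within the pair-fed range, and ethanol-fed libraries 2 and 3 were at 67.6 and 74.0. The 6 stellate cell markers summed to 113 to 136, 105 to 124 and 113 to 123 FPKM, with 0 higher and 2 lower under ethanol. The 6 erythroid markers summed to 143 to 194, 192 to 259 and 177 to 246 FPKM, with 1 higher, and of 9 hepatocyte markers tested 2 were higher and 1 lower. The 4 adipocyte markers in the tables summed to 0.329 to 2.41, 2.04 to 11.04 and 1.07 to 2.85 FPKM. Only Cidec passed the filter, and it was called higher under ethanol (log2 fold change 1.88, limma adjusted p = 0.0207). As a single gene, Cidec cannot show a change in adipocytes. The part of these shifts in the changes of the members was not tested.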

How the data were processed

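Liver RNA of 9 libraries was read from 2 deposited tables. The submitters' processing notes list HISAT2, HTSeq, fastp and the mm10 build; versions, strand setting and the rule for reads with several places are not given in the sources used here. The authors deposited FPKM for every library, and a signal (mean of reads divided by size factors), linear fold (ratio), log2 fold change, p-value and q-value for each of their 2 comparisons, per the file headers. The tables held 16842 and 16470 genes, 16266 in both, and the ethanol-fed columns shared by both differed by a relative 4.43e-07 at most. Members and lists were chosen with earlier results of these data known, and the genes named are the mitochondrial members, called members, isoform pairs, redox subunits, and the highest and most changed members of each complex.

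Differential levels were tested with limma 3.58.1 (R 4.3.3; lmFit, eBayes with trend and robust) on log2(FPKM + 1) over genes at 1 FPKM or more in at least 3 libraries, on 6 libraries for the ethanol and Mettl3 comparisons and on 9 for Mettl3 against pair-fed. Because the deposited unit was FPKM, the test foreseen for counts was not used. A fold change on this scale understates changes of low genes. Whole reads were recovered from FPKM and the signal columns, 100% of values up to 200 reads being whole within 0.05, and gave the depth of each library. The fits were also run on simulated data, with changes larger than any called in the members. That run does not bear on calls of the sizes given here. Alternatives were median-ratio size factors, a pseudocount of 0.1, no filter, limma-voom on recovered reads, a fit of all 9 libraries, a replicate block and leaving out each library. A fit of 2 groups alone for Mettl3 against pair-fed was chosen after seeing the data. Copies were found with blastn 2.17.0 among GENCODE M21 transcripts (GRCm38). Python 3.11.15 with pandas 2.3.3 and matplotlib 3.10.9 made tables and figures. All 98 members matched RefSeq GRCm38 by gene number.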

Additional observations from a re-analysis of the deposited data

How the results depend on the processing

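Both the scaling and single libraries moved the counts. With median-ratio size factors, ethanol-fed against pair-fed gave 5 members higher and 2 lower and medians of 0.31 (mitochondrial) and 0.015 (nuclear), Mettl3 against control virus a mitochondrial median of -0.033, and Mettl3 against pair-fed 8 higher and 2 lower with medians of 0.30 and 0.053. Over all genes this scaling turned 1009 higher and 2616 lower ethanol calls into 1796 and 1663, and 1424 and 3572 into 2597 and 2168 for Mettl3 against pair-fed. A fit of all 9 libraries gave 1 member higher under ethanol, and no filter gave 1 higher in Mettl3 against pair-fed.

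Same-numbered libraries did not deviate together (correlations of -0.19, -0.12 and 0.11 for ethanol, -0.36, 0.40 and -0.42 for Mettl3 against control virus, 0.05, -0.05 and 0.09 for Mettl3 against pair-fed), so the numbers were not taken to pair samples. With a replicate block, ethanol gave 0 higher and 6 lower, and Mettl3 against pair-fed 1 higher.

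Leaving out 1 library gave 0 to 4 higher and 2 to 22 lower under ethanol, with a mitochondrial median of 0.081 to 0.24 and a nuclear one of -0.21 to -0.11. The 22 came without ethanol-fed library 1 and the 2 without pair-fed library 3; pair-fed libraries 1 and 2 and ethanol-fed libraries 2 and 3 gave 5, 4, 5 and 7 lower. Mettl3 against control virus kept 0 calls, with a mitochondrial median of -0.16 to -0.049. Mettl3 against pair-fed gave 1 to 2 higher and 7 to 42 lower; the 42 came without Mettl3 library 3, and without pair-fed libraries 1, 2 and 3 and Mettl3 libraries 1 and 2 there were 10, 9, 7, 9 and 8. The share of all genes called was not counted for these fits, so the member counts have no background beside them. Nor was it counted for the replicate block, the fit of all 9 libraries or the fit without a filter. The cause of the swings was not tested, apart from the fewer samples in each fit without 1 library. For single members, 0 alternatives reversed a called direction. Limma-voom used library totals, and TMM normalization was not run. Depth is lowest for ND6 among the mitochondrial members, with 362 to 641 reads a library, and Cox4i2, Cox6a2, Cox6b2 and Ndufa4l2 were too low to test.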
